A study of Mus musculus with 8 samples.

Results

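The gene segments of the mouse T cell receptor alpha locus were described in RNA-seq of lymph node CD8 T cells that were sorted for surface Ly6C and CXCR3, a memory phenotype in the submitters' words. The members were every gene row whose symbol starts with Trav or Traj or equals Trac, 97 of the 13245 genes in the table: 96 variable segments (Trav) and the constant segment Trac. No joining segment (Traj) was analysed here, although GENCODE release M21 annotates 60. There were 4 libraries from CD103Tg mice, described in the labels as overexpressing the integrin chain CD103 (gene Itgae), and 4 libraries from wild type C57BL/6 (B6) mice. Both groups shared the tissue, the sort and the library kits. The promoter of the transgene, the strain of the CD103Tg mice, their age and any pooling of animals are not given in the sources used here. Nor is it stated whether each replicate is its own animal, and the p-values therefore reflect variation among these libraries, which may be technical.

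In the thymus, the RAG recombinase joins one Trav segment to one Traj segment, and splicing links the joined exon to Trac, so each alpha chain transcript carries 1 Trav segment and Trac. A Trav segment encodes most of the variable domain, including the germline-encoded loops that contact the peptide-MHC complex. First joins at this locus tend to use Trav segments near the Traj cluster, and later rounds of joining can replace them with segments farther 5′. In C57BL/6 mice much of the Trav cluster is present in 3 copies, whose segments carry the letters d or n or no letter.

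All 97 members lie on chromosome 14, plus strand (GRCm38), and none of their exons overlaps another gene. From 5′ to 3′, 7 listed segments lie before the triplicated block, 28 in its d copy, 24 in its n copy, 33 in the third copy, whose names carry no letter, and 4 between the block and the Traj cluster. These are 96 of the 128 Trav genes of GENCODE M21 and include 2 of its 20 Trav pseudogenes, Trav13-3 and Trav8-2. Copies are so alike that 83 of the 96 listed segments match another Trav segment at 95% identity or more. Percent identity compares the longest exon of each segment, with the shorter exon aligned within the longer. Of the rows, 28 form 14 pairs with identical transcripts and identical values in every library. The division of reads among such copies is an estimate by the authors' software, so sums over copies are given beside single rows. Trav alleles differ between mouse strains, and the strain of the CD103Tg mice is not known here, so an allele that differs from the C57BL/6 reference could change how reads were divided among copies; its part in the values below was not tested.

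The 3 sets of copies below are shown because the copies differed in how their values compared between the groups. They are 90-base stretches of the GENCODE M21 transcripts on GRCm38, plus strand, written 5′ to 3′ with capitals marking the bases that differ among the copies. The copies differed at 11 of 289 aligned bases in the Trav12-2 set, at 6 of 291 in the Trav5-4 set and at 6 of 301 in the Trav16 set. The 6 d and n copies printed lie at chr14:52916225-52916314, chr14:53227199-53227288, chr14:53001942-53002031, chr14:53313132-53313221, chr14:53047703-53047792 and chr14:53351503-53351592 in the order of the lines. The 3 remaining stretches lie at chr14:53616713-53616802, chr14:53704224-53704313 and chr14:53743587-53743676.
Trav12d-2: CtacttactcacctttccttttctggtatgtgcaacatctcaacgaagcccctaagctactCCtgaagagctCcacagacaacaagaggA
Trav12n-2: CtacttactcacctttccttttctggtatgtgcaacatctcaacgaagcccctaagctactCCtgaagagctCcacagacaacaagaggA
Trav12-2: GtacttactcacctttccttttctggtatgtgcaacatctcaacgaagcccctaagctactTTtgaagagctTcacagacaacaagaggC
Trav5d-4: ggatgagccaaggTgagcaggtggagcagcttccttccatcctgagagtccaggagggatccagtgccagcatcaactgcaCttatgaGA
Trav5n-4: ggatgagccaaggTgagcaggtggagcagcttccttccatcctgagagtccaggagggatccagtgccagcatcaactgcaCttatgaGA
Trav5-4: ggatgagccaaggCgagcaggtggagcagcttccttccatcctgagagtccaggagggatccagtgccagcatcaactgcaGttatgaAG
Trav16d-dv11: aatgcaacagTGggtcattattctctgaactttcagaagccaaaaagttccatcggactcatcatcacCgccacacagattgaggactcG
Trav16n: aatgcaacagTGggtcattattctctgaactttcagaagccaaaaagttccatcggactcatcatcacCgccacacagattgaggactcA
Trav16: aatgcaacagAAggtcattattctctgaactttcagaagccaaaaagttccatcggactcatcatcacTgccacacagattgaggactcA

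Values are TMM-scaled CPM from the authors, a read count relative to library size, and fold changes are CD103Tg over B6 on the log2(CPM + 1) scale, which understates the change of low segments. A library held 50187279 to 56371476 estimated reads, so that a single read equalled 0.0171 to 0.0203 CPM. Itgae was at 3469, 4692, 4169 and 5509 CPM in CD103Tg libraries, against 41.4, 51.4, 37.5 and 173.9 CPM in B6 libraries, higher in all 4 CD103Tg libraries as their label says. Among CD8 T cell markers, Cd8b1 and Cd3e did not pass the test, and Cd8a fell by 0.24 ± 0.05 (SE; adjusted p = 0.006). Of the markers of other cells, the CD4 T cell genes Zbtb7b and Cd40lg together stayed at or below 0.447 CPM in CD103Tg and 1.95 CPM in B6 libraries, and Cd4 and Foxp3 were not analysed here. Of the B cell markers, Ighm averaged 382 CPM in CD103Tg and 816 CPM in B6 and fell, Cd22 and Cd79a rose and Cd79b did not pass. Ms4a1, a B cell surface gene, averaged 1.27 CPM in CD103Tg and 0.213 CPM in B6. The 4 natural killer cell markers summed to 330.5 to 434.7 CPM in CD103Tg and 161 to 190.03 CPM in B6, mostly Eomes. Eomes, Gzma and Klrb1c rose. Gzma averaged 27.7 CPM in CD103Tg and 3.84 CPM in B6, and Klrb1c 6.97 and 3.55 CPM. Ncr1 averaged 0.401 CPM in CD103Tg and 0.506 CPM in B6, under the filter. Of the plasma cell markers, Jchain averaged 9.46 ± 10.6 CPM in CD103Tg and 0.319 CPM in B6, and Jchain and Xbp1 rose. The part of such cells in the results below was not tested.

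Alpha chain signal as a whole was lower in CD103Tg cells. Trac, which encodes the constant region shared by all alpha chains (chr14:54220521-54224206), was at 615.9, 635.2, 629.6 and 688.2 CPM in CD103Tg libraries, against 1076, 1044, 1027 and 879.7 CPM in B6 libraries. Every CD103Tg library lay below every B6 library. Trac fell by 0.64 ± 0.07 on the log2 scale (SE; limma adjusted p = 4.9e-05), a 1.56-fold decrease. The 96 Trav rows summed to 223 to 229.9 CPM in CD103Tg libraries and 306.8 to 339.6 CPM in B6 libraries, a ratio of means of 0.695. Per kilobase of exon, the summed Trav signal was 0.826 ± 0.040 of the Trac signal in CD103Tg and 0.762 ± 0.048 of it in B6 (SD, n = 4 each), and the groups overlapped. In these bulk libraries, fewer cells using a segment and less alpha chain RNA per cell cannot be told apart.

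**Figure D1:**
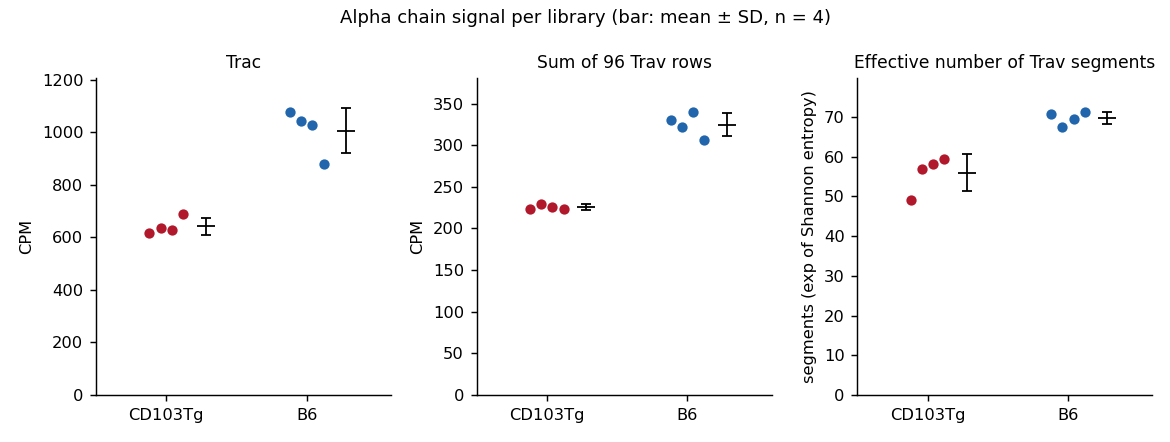
Trac (CPM), the sum of the 96 Trav rows (CPM) and the effective number of Trav segments in each library, with the mean ± SD beside the points (n = 4). In all 3 panels the CD103Tg libraries lie below the B6 libraries, with Trac at 615.9 to 688.2 CPM in CD103Tg and 879.7 to 1076 CPM in B6.

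Single segments differed in both directions, and the direction varied along the locus. The filter of a mean of at least 1 CPM left 71 of the 97 members, of which 4 rose (Trav16, Trav17, Trav19 and Trav21-dv12), 37 fell and 30 did not pass. Of all 11503 genes tested, 17.4% were called higher and 13.8% lower. Both rows of an identical pair are counted in this paragraph. With identical rows summed, an alternative that was not planned, 4 rose and 33 fell. Of the 71, 12 had a CD103Tg mean under 1 CPM and so were tested because of their B6 level; Trav2 and Trav3-1 are among them. Without the filter, 4 of all 97 members rose and 51 fell, against 16.1% and 12.7% of the 13245 genes, and the median log2 fold change of the 97 was -0.52, against -0.01 for all genes. Libraries of the groups did not overlap for 62 members, 55 lower and 7 higher in CD103Tg, where 13% and 16.4% of all listed genes did so. When every library was rescaled to the same summed Trav signal, which sets aside the overall decrease, 11 of 70 tested members were called higher and 22 lower, against 17.4% and 13.7% of all tested genes.

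The 7 segments at the 5′ end of the locus, Trav1 to Trav6-2, were lower in CD103Tg cells, with ratios of means from 0.120 to 0.360. Together they gave 2.25 ± 0.42 CPM in CD103Tg and 10.3 ± 1.15 CPM in B6 (SD, n = 4 each), a ratio of 0.220 and the lowest among the sums of the 5 stretches of the locus, and none of the 7 overlapped between the groups. All 7 fell in the fit without a filter, where 12.7% of all genes fell. Trav2 and Trav3-1 also have values in the filtered fit, which they entered through their B6 level, so those values add no separate support. The longest exon of Trav2 (chr14:52567198-52568051) is at most 64.2% identical to that of any other Trav segment. Trav2 was at 0.305, 0.142, 0.670 and 0.249 CPM in CD103Tg libraries, against 2.40, 1.87, 2.21 and 1.71 CPM in B6 libraries. It fell by 1.19 ± 0.16 (SE; adjusted p = 0.000188). Trav3-1 was at 0.062, 0.162, 0.188 and 0.488 CPM in CD103Tg libraries, against 1.45, 1.64, 2.43 and 1.97 CPM in B6 libraries, and fell by 1.23 ± 0.16 (adjusted p = 0.000197). In both, the highest CD103Tg library was under the lowest B6 library. Trav5-1 averaged 0.507 ± 0.064 CPM in CD103Tg and 1.41 ± 0.30 CPM in B6, and Trav6-1 averaged 0.352 ± 0.208 and 1.52 ± 0.51 CPM in CD103Tg and B6.

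At the other end, the 4 listed segments between the block and the Traj cluster were higher. They summed to 18.4 ± 1.40 CPM in CD103Tg and 10.6 ± 0.66 CPM in B6, a ratio of means of 1.73, with no overlap for any of the 4. Trav21-dv12, the segment nearest to Trac among those listed (345 kb from it, chr14:53875984-53876752), was at 3.4, 4.64, 4.97 and 3.79 CPM in CD103Tg libraries, against 1.81, 2.07, 2.01 and 2.15 CPM in B6 libraries. It rose by 0.78 ± 0.13 (SE; adjusted p = 0.000891), and its name marks it as a segment that the delta chain can also use. Trav19, 375 kb from Trac (chr14:53845234-53845827), was at 8.97, 8.04, 9.68 and 8.86 CPM in CD103Tg libraries, against 4.82, 5.67, 4.81 and 5.51 CPM in B6 libraries. It rose by 0.67 ± 0.10 (adjusted p = 0.000424) and was one of the 8 segments with the highest mean. Trav17 (chr14:53806639-53807115) was at 3.07, 3.2, 4.32 and 3.01 CPM in CD103Tg libraries, against 1.87, 2.32, 2.13 and 2.19 CPM in B6 libraries, and rose by 0.49 ± 0.13 (adjusted p = 0.0147). Trav3-4 averaged 1.89 CPM in CD103Tg and 1.28 CPM in B6 and did not pass. The longest exons of Trav17, Trav19 and Trav21-dv12 are at most 75.2% identical to that of any other Trav segment. By that measure these segments have no near-identical copy among the annotated Trav segments.

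**Figure D2:**
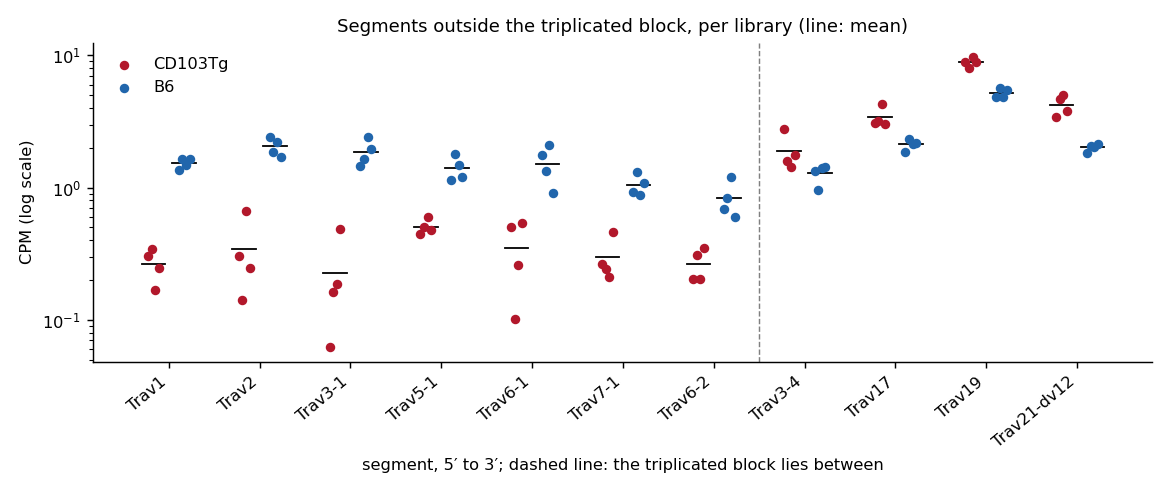
Level of the 11 listed segments outside the triplicated block in each library (CPM, log scale), ordered 5′ to 3′, with a line at each group's mean. The 7 segments on the left lie lower in CD103Tg than in B6 libraries, and the 4 on the right, Trav3-4 to Trav21-dv12, lie higher, with no overlap in any of the 11.

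Inside the block, the d and n copies were lower throughout. Most of the identical pairs are a d row and an n row, so counts for the d and n copies are not separate support. All 28 listed d segments and all 24 listed n segments had a lower mean in CD103Tg. Without the filter, 16 d and 19 n segments fell and none rose, where 12.7% of all genes fell and 16.1% rose. Their sums were 37.3 ± 4.00 CPM in CD103Tg and 75.9 CPM in B6 for the d copy, and 40.8 ± 2.88 CPM in CD103Tg and 85.7 CPM in B6 for the n copy, ratios of 0.491 and 0.475. The members with the smallest p came mostly from here, several as identical pairs. Trav12d-2 and Trav12n-2, which share all their values, were at 1.07, 1.30, 1.69 and 1.72 CPM in CD103Tg libraries, against 4.90, 4.81, 4.72 and 3.85 CPM in B6 libraries. They fell by 1.19 ± 0.13 (SE; adjusted p = 5.54e-05). The pair Trav9d-3 and Trav9n-3 averaged 1.82 ± 0.40 CPM in CD103Tg and 5.48 ± 0.74 CPM in B6 (adjusted p = 6.96e-05), and the pair Trav3d-3 and Trav3n-3 averaged 2.48 ± 0.31 and 6.03 ± 0.64 CPM in CD103Tg and B6 (adjusted p = 6.52e-05). These groups did not overlap either.

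Of the segments of the n copy with values of their own, Trav6n-6 was at 1.58, 1.05, 1.17 and 1.11 CPM in CD103Tg libraries, against 3.53, 3.03, 3.61 and 3.59 CPM in B6 libraries, and fell by 1.00 ± 0.13 (adjusted p = 0.000128). Trav14n-3 averaged 2.32 ± 0.25 CPM in CD103Tg and 4.97 ± 0.073 CPM in B6 and fell by 0.85 ± 0.11 (adjusted p = 0.000128). Trav12n-3, one of the most abundant segments in B6 cells, was at 6.54, 4.70, 5.37 and 6.57 CPM in CD103Tg libraries, against 10.1, 18.4, 18.1 and 13.3 CPM in B6 libraries. It fell by 1.21 ± 0.18 (adjusted p = 0.00041). Trav12n-3 shares a transcript sequence with Trav12d-3 in full, and Trav12d-3 was listed at 0 to 1.71 CPM in CD103Tg and at 0 to 8.17 CPM in B6, each group having libraries with a value and a library at 0. Together the pair gave 6.46 ± 0.614 CPM in CD103Tg and 17.8 ± 0.897 CPM in B6. The abundant pair Trav14d-1 and Trav14n-1 averaged 4.41 ± 0.43 CPM in CD103Tg and 7.82 ± 0.64 CPM in B6 and fell by 0.70 ± 0.10 (adjusted p = 0.000432).

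In the third copy the decrease weakened along the DNA, from mostly lower values at the 5′ side to ratios on both sides of 1 further 3′. Its 33 listed segments summed to 127.0 ± 2.52 CPM in CD103Tg and 142 CPM in B6, a ratio of 0.893. Without the filter 8 fell, 1 rose and 24 did not pass, where 12.7% of all genes fell and 16.1% rose. The last of the 8 that fell was Trav14-1, segment 14 of the 33. The third copy was cut at that segment, so the calls themselves set the cut. In the first 14 segments, ratios of means ran from 0.287 to 1.05. In the 19 that follow, ratios ran from 0.660 to 1.43 and 9 were above 1. Over the 33 segments, Spearman's rho between the log2 fold change and the start coordinate was 0.838, against -0.165 over the 28 of the d copy and 0.037 over the 24 of the n copy. Over all 96 listed Trav rows rho was 0.615. Over the 70 tested Trav rows, of which 12 entered the test through their B6 level, rho was 0.713. Over those 70 it was 0.592 to 0.722 when each CD103Tg library in turn was set against the same B6 mean. These are descriptions: segments share libraries and reads, and the ratio of means also had a rho of 0.362 with the mean level over the 96 rows. Over the 13 segments whose longest exon is under 95% identical to any other, rho between the ratio of means and the start was 0.945. Most of the 13 lie outside the block and only Trav12-1 is in the third copy, so this rho mainly restates the contrast between the ends of the locus.

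**Figure D3:**
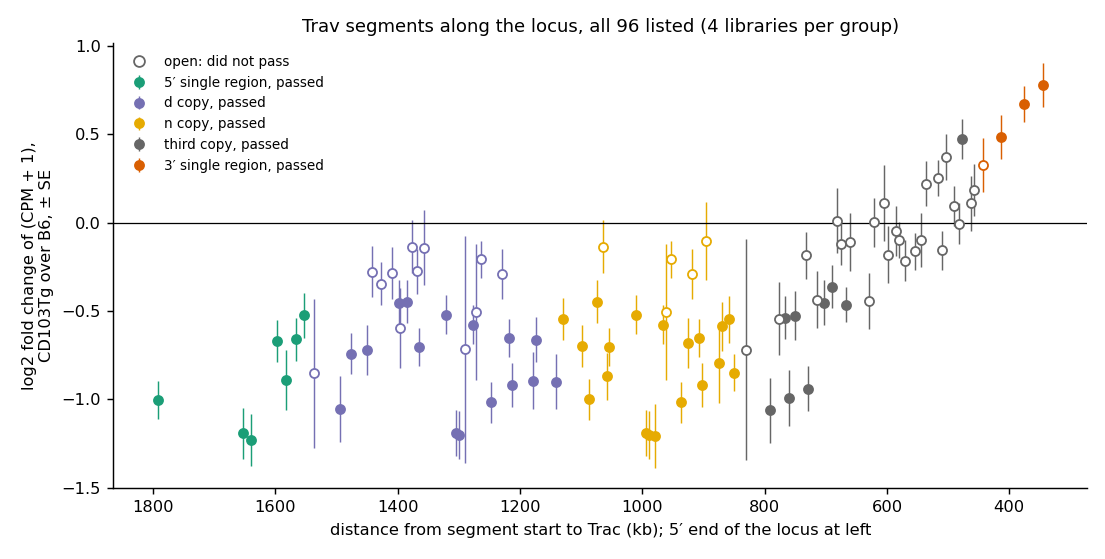
Log2 fold change of CPM + 1, CD103Tg over B6, with its SE, for all 96 listed Trav segments in the fit without a filter, against the distance from the segment's start to Trac in kilobases. Filled points passed at an adjusted p under 0.05. The d and n copies lie below 0, and Trav17, Trav19 and Trav21-dv12 lie at 0.49 to 0.78. The third copy lies mostly below 0 at its 5′ side and on both sides of 0 further 3′.

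As shares of each library's summed Trav signal, the 5′ segments held 1.00 ± 0.20% in CD103Tg and 3.16 ± 0.25% in B6 (SD, n = 4 each). The d copy held 16.5 ± 1.54% in CD103Tg and 23.4 ± 0.92% in B6, and the n copy 18.1 ± 1.10% in CD103Tg and 26.4 ± 1.41% in B6. The third copy held 56.3 ± 1.87% in CD103Tg and 43.8 ± 0.72% in B6, and the 4 segments 3′ of the block 8.14 ± 0.63% in CD103Tg and 3.28 ± 0.33% in B6. None of the 5 shares overlapped between the groups. Because the shares add up to the whole within a library, a gain in one comes with a loss in the others.

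**Figure D4:**
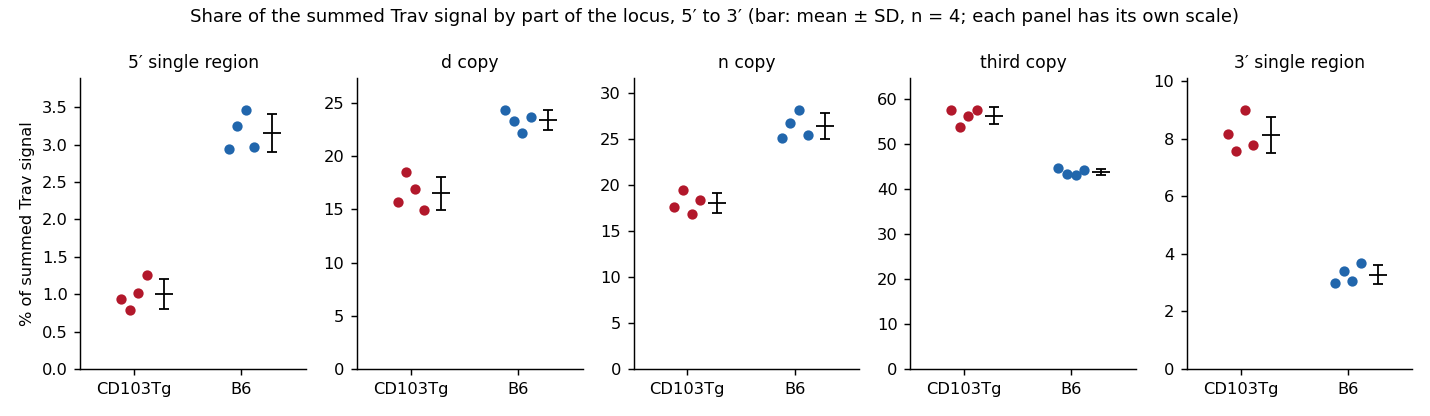
Share of the summed Trav signal (%) held by each stretch of the locus, 5′ to 3′, in each library, with the mean ± SD (n = 4); each panel has its own scale from 0. CD103Tg libraries hold 0.786 to 1.26% in the 5′ segments and 53.7 to 57.7% in the third copy, B6 libraries 2.94 to 3.47% and 43.1 to 44.6%.

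The same shift showed between copies of one segment. In 29 sets a segment of the third copy and at least 1 d or n counterpart were listed, and in all 29 the summed d and n signal had a lower mean in CD103Tg (ratios 0.244 to 0.864), while the ratio of the third copy ran from 0.287 to 1.43. The ratio was higher for the third copy than for its counterparts in 25 sets. The third copy itself also had a lower mean in CD103Tg in 20 of the 29 sets. The share of the third copy in its set was higher in CD103Tg without overlap in 14 sets and lower without overlap in 0. Among the 14 is the Trav6-6 set, where Trav6-6 and its counterpart Trav6d-6 have identical values, so their reads cannot be told apart. The levels, not shares, of 16.4% and 13% of all listed genes did not overlap in those directions, and such a background for shares is not given here.

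Trav16, the member of this block that rose (chr14:53743104-53743705), was at 11.7, 13.8, 15.6 and 13.8 CPM in CD103Tg libraries, against 10.7, 9.46, 10.1 and 8.11 CPM in B6 libraries, a rise of 0.47 ± 0.11 (SE; adjusted p = 0.00761). Its counterpart Trav16n was at 7.28, 4.50, 5.53 and 6.95 CPM in CD103Tg libraries, against 9.44, 9.54, 10.6 and 8.41 CPM in B6 libraries, and fell by 0.59 ± 0.14 (adjusted p = 0.00763). Trav16d-dv11 averaged 1.5 ± 0.37 CPM in CD103Tg and 2.92 ± 0.16 CPM in B6 and fell by 0.66 ± 0.14 (adjusted p = 0.00364). The 3 copies together gave 21.3 ± 1.72 CPM in CD103Tg and 22 ± 1.84 CPM in B6 (log2 fold change -0.05 ± 0.09, adjusted p = 0.725). The copies are told apart by 6 of 301 aligned bases, 4 of which are among the capitals printed above. Trav16 made up 58.3, 70.3, 68.3 and 61% of the set in CD103Tg libraries, against 46.8, 42.7, 42.8 and 41.7% in B6 libraries.

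In the Trav5-4 set, Trav5-4 averaged 5.88 ± 0.41 CPM in CD103Tg and 4.77 ± 0.38 CPM in B6 (adjusted p = 0.0814), and its identical counterparts Trav5d-4 and Trav5n-4 averaged 0.324 ± 0.077 and 1.08 ± 0.14 CPM in CD103Tg and B6. Trav5-4 made up 86.2 to 92.0% of its set in CD103Tg and 65.9 to 71.3% in B6. Trav12-2, the most abundant segment of all, was at 33.9, 16.7, 15.3 and 14.5 CPM in CD103Tg libraries, against 18.9, 16.6, 17.6 and 16.7 CPM in B6 libraries, and did not pass (adjusted p = 0.737), with 1 CD103Tg library far above the rest. It made up 80.9 to 94.0% of its set in CD103Tg and 63.3 to 68.4% in B6. Trav3-3 averaged 6.72 ± 0.46 CPM in CD103Tg and 7.65 ± 0.73 CPM in B6 (adjusted p = 0.241) and made up 55.5 to 59.7% of its set in CD103Tg and 34.5 to 41.1% in B6. In other sets the shares overlapped. Trav14-2 averaged 5.95 ± 0.33 CPM in CD103Tg and 6.45 ± 0.50 CPM in B6 (adjusted p = 0.478) and made up 22.3 to 66.3% of its set in CD103Tg and 39.1 to 44.2% in B6. Trav7-6, with the highest ratio of the third copy, averaged 3.08 ± 0.53 CPM in CD103Tg and 2.15 ± 0.32 CPM in B6 (adjusted p = 0.0578) and made up 89.0 to 100% of its set in CD103Tg and 71.8 to 100% in B6.

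**Figure D5:**
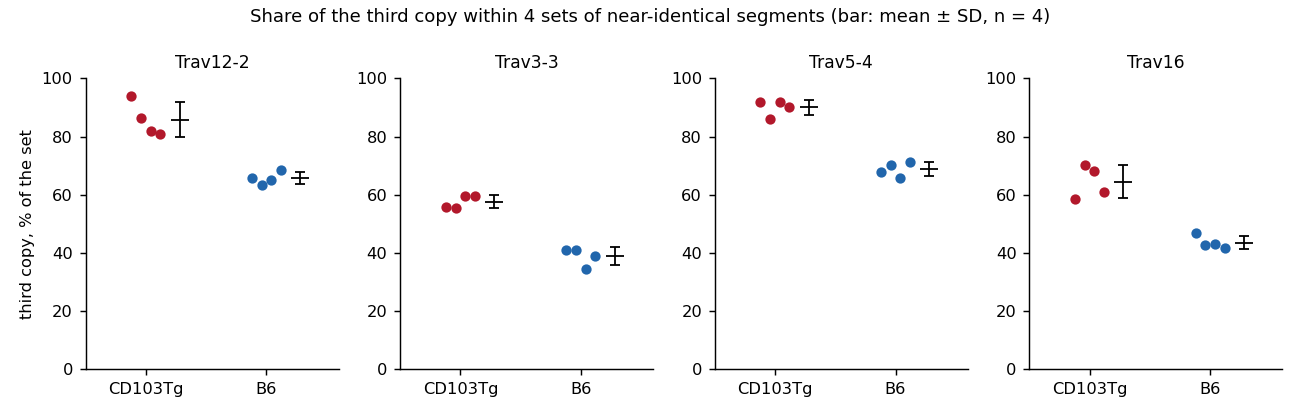
Share (%) of the third copy in its own set of near-identical segments, per library, for the Trav12-2, Trav3-3, Trav5-4 and Trav16 sets, with the mean ± SD (n = 4). In each of the 4 sets the lowest CD103Tg library is above the highest B6 library, for example 58.3% against 46.8% for Trav16.

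Summed by subgroup, the families that share a number in their names, the split between listed copies no longer counts. Copies not analysed here, among them Trav11, Trav9d-2 and Trav6d-4, are outside these sums, so reads assigned to them are not counted. Of 19 Trav subgroups, 18 were tested, and 3 rose, 10 fell and 5 did not pass, where 17.4% of the features in that fit were called higher and 13.7% lower. The 3 that rose, Trav17, Trav19 and Trav21, are each 1 listed segment. Trav6, with 12 listed segments, gave 16.1 CPM in CD103Tg and 32.7 CPM in B6 and fell by 0.98 ± 0.09 (SE). The most abundant subgroup, Trav12, gave 41.3 CPM in CD103Tg and 57 CPM in B6 and fell by 0.47 ± 0.11 (adjusted p = 0.00774). The 5 that did not pass were Trav4, Trav5, Trav11, Trav15 and Trav16.

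Segments of invariant receptors were low. Trav11d has a transcript identical to that of Trav11, the segment of mouse natural killer T cells, which was not analysed here. Trav11d was at 0.895, 0.787 and 1.04 CPM in 3 CD103Tg libraries and listed at 0 in the fourth, against 1.11, 1.17, 2.31 and 1.38 CPM in B6 libraries, and did not pass (adjusted p = 0.0801). Trav1, used by mucosal-associated invariant T cells, was at 0.305, 0.344, 0.168 and 0.249 CPM in CD103Tg libraries, against 1.36, 1.66, 1.5 and 1.64 CPM in B6 libraries. These correspond to 15, 17, 9 and 13 estimated reads in CD103Tg and 74, 85, 78 and 96 in B6. Trav1 stayed under the filter and fell by 1.00 ± 0.11 in the fit without it (adjusted p = 4.78e-05), as did the other 5′ segments.

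The signal was spread less evenly over the listed Trav rows in CD103Tg cells. Both rows of an identical pair count here, and the estimated division of reads among copies enters the values below. The effective number of Trav segments, the exponential of the Shannon entropy of their shares, was 49.2, 57, 58.1 and 59.5 in CD103Tg libraries, against 70.7, 67.5, 69.6 and 71.2 in B6 libraries. Between 93 and 95 Trav rows were above 0 in CD103Tg libraries and between 94 and 96 in B6 libraries. The largest share of 1 segment was 15.2, 7.24, 6.92 and 6.5% in CD103Tg libraries, against 5.72, 5.72, 5.34 and 5.43% in B6 libraries. That segment was Trav12-2 in CD103Tg replicates 1, 2 and 4 and in B6 replicates 1 and 4, Trav16 in CD103Tg replicate 3, and Trav12n-3 in B6 replicates 2 and 3. The place of Trav12n-3 depends on how reads were divided between it and Trav12d-3.

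Some beta chain genes were also lower in CD103Tg cells. Trbc1 and Trbc2, the beta constant segments, fell by 0.32 ± 0.07 and 0.29 ± 0.08 (SE; adjusted p = 0.005 and 0.0155). Of 19 tested beta variable segments (Trbv), 10 fell, none rose and 9 did not pass, where 13.8% of all tested genes fell and 17.4% rose, and their median log2 fold change was -0.33, against -0.01 for all tested genes. The ratio of Trac to summed Trbc was 0.463, 0.507, 0.506 and 0.565 in CD103Tg libraries, against 0.646, 0.712, 0.593 and 0.639 in B6 libraries, without overlap and not tested further. Trdc, the delta constant segment that lies within the alpha locus, averaged 13 ± 2.07 CPM in CD103Tg and 10.8 ± 2.52 CPM in B6 (adjusted p = 0.236), and Trdv2-2 rose by 0.52 ± 0.14 (adjusted p = 0.0188).

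Of 12 tested genes that assemble with the receptor or carry its first signals, 2 rose, 4 fell and 6 did not pass, where 17.4% of all tested genes rose and 13.8% fell. The CD3 chains that travel with the receptor to the surface, Cd3d, Cd3e and Cd3g, did not pass (log2 fold changes 0.08, -0.11 and -0.04). Cd247, the zeta chain, averaged 8711 ± 1001 CPM in CD103Tg and 345 ± 89.2 CPM in B6. In B6 libraries Cd247 was at 303.2, 285.4, 314.8 and 477.9 CPM. Replicate 4, the highest of these, was also the highest B6 library for Itgae, at 173.9 CPM. The labels do not say whether the transgene construct carries Cd247 sequence, so its value and its place among the 2 that rose may not reflect the endogenous gene. Lat, an adaptor of receptor signalling, rose by 0.20 ± 0.07 (adjusted p = 0.0455). Themis, a regulator of receptor signalling in thymocytes, fell by 0.32 ± 0.05 (adjusted p = 0.0005). Of 23 tested genes of recombination, end joining or alpha locus regulation, 3 rose, 6 fell and 14 did not pass, against the same 17.4% and 13.8% of all tested genes. Lef1 (-1.10 ± 0.07), Runx1 (-0.73 ± 0.11) and Ets1 (-0.41 ± 0.07) fell, and so did the end-joining genes Lig4, Prkdc and Dclre1c. Gata3, Tcf3 and Hmgb2 rose, by 0.39 ± 0.09, 0.41 ± 0.06 and 0.97 ± 0.09. Rag1 and Rag2 were not analysed here.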

How the data were processed

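RNA-seq of 8 libraries (4 CD103Tg, 4 B6; SMART-Seq v4 and Nextera XT kits per the labels, which name no molecular identifiers or strand marking) was used as deposited. The authors' table holds a TMM-scaled CPM signal per gene; RSEM, STAR 2.7.0f, cutadapt 1.18 and bcl2fastq 2.17 were used, on GRCm38 or mm10, per the submitters' processing notes. Whole reads were estimated from the smallest steps of each column: 63.0 to 65.2% of values were whole reads within 0.005 and 100% were hundredths of a read, as fits fractional estimated counts, so reads serve for depth and for 1 alternative, and limit precision by counting error at least.

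All 13245 gene IDs matched GENCODE M21, from which positions, exon lengths and transcripts were read. The test was limma 3.58.1 (R 4.3.3; trend, two-sided) on log2(CPM + 1) for genes averaging at least 1 CPM over all libraries, with Benjamini-Hochberg adjustment over all tested genes and a threshold of 0.05; it was tested on simulated data. Subgroup sums were fitted in place of Trav rows over the whole table. Sums, shares and effective numbers have no test. Summaries used Python 3.11.15, pandas 2.3.3, numpy 2.4.6 and scipy 1.17.1. Named segments were Trac, the 10 Trav rows with the smallest p, the 8 with the highest mean (ties kept) and invariant receptor segments; Trav5-1, Trav6-1, Trav17, Trav21-dv12, Trav16d-dv11, the Trav5-4 set, Trav14d-2, Trav14n-2, Trav7-6, Trav12-1, Trav12d-3 and Trav3-4 were chosen after their values were seen. The members and lists were chosen with earlier results of these data known. Alternatives changed the pseudocount, filter, scaling, block, fit and libraries. Markers of further cell types were read from the same table: of those tested, 2 of 2 plasma cell, 3 of 3 natural killer, 2 of 3 dendritic and 1 of 5 myeloid genes were higher in CD103Tg.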

Additional observations from a re-analysis of the deposited data

Results flagged for a closer look

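In groups of 4, a library was flagged when its gap to the nearest other library exceeded Dixon's 95% critical share of the group's range, which chance gives in about 1 of 20 groups; 90 groups were examined. Of the CD103Tg libraries, several stood apart for 1 segment or pair. Trav14d-2 and Trav14n-2, an identical pair, were at 10.2 CPM in CD103Tg replicate 2 and at 1.46, 1.69 and 2.15 CPM in the other CD103Tg libraries, against 4.42 to 4.72 CPM in B6 libraries. Without that library the pair fell by 1.01 on the log2 scale (adjusted p = 0.000355), whereas with it the pair did not pass (adjusted p = 0.36). Trav12-2 stood at 33.9 CPM in CD103Tg replicate 1, which also put the largest share of 1 segment there at 15.2%. Trav12-1 stood at 8.61 CPM in CD103Tg replicate 3, against 4.14 to 4.60 CPM in the other CD103Tg libraries, and Trav17 at 4.32 CPM in the same library. The summed Trav signal per kilobase was 0.766 of the Trac signal in CD103Tg replicate 4 and 0.843 to 0.849 in the others.

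Among the segments examined in B6 libraries, the values that stood apart were lower ones. Trav12d-2 and Trav12n-2 were at 3.85 CPM in replicate 4, Trav6n-6 at 3.03 CPM in replicate 2, and Trav14n-3 at 4.86 CPM in replicate 2, where the other 3 lay between 5.0 and 5.01 CPM. Each of these B6 values was still above every CD103Tg library of its segment.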

How the results depend on the processing

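With a minimum mean of 5 CPM, 2 members rose and 7 fell and 1 subgroup rose, since fewer segments were tested. Rescaling to an equal summed Trav signal gave 11 members higher and 22 lower. Leaving out 1 library at a time gave 4 members higher and 30 to 41 lower, 3 subgroups higher and 10 to 11 lower, and a Trac log2 fold change of -0.71 to -0.61. The difference in effective number (CD103Tg minus B6) was -15.0 to -11.5 without 1 library and -9.45 over segments with a mean of at least 1 CPM. The correlation with position was 0.648 to 0.734 without 1 library and, in an alternative chosen after seeing the data, 0.615 over all 96 rows; the cause was not tested. The log2 fold change of Trav12-2, which did not pass, ran from -0.16 to 0.23 without 1 library. The other 122 values for main results moved less than the spread or 1.5-fold.

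Same-numbered CD103Tg and B6 libraries had correlations of deviations of 0.221, 0.350, -0.081 and 0.123. Differently numbered libraries had -0.207 to 0.236, so these values do not settle whether the numbers pair the libraries. With the replicate block, 4 members were higher and 37 lower, 36 of them among the 37 without it. Traj alternatives have no value, as no Traj row was listed. Segments under about 1 CPM rest on few reads, and the largest shift of the median gene under another scaling was to -0.04.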
